A study of Mus musculus with 5 samples.

Results

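Binding sites of the transcription factors Hand1 and Foxf1 were examined at 10 genes of epithelial-mesenchymal transition (EMT) and mesenchyme: Snai1, Snai2, Zeb1, Zeb2, Cdh1, Cdh2, Cdh11, Vim, Fn1 and Pdgfra. A site was a line of a deposited peak list whose summit, the position of highest enrichment, lay in the gene or within 100 kb of either end. By this rule 11 of the 6837 lines fell at these genes: 10 of the 5703 Foxf1 lines and 1 of the 1134 Hand1 lines. Foxf1 sites lay at 4 of the 10 genes (Snai1, Snai2, Cdh1 and Pdgfra), and the Hand1 site lay at another, Fn1. By the same rule 53.3% of all protein-coding genes had a Foxf1 site and 9.90% a Hand1 site. A Foxf1 summit lay within 1 kb of a gene end at Snai1, Snai2 and Pdgfra, whereas Zeb1, Zeb2, Cdh2, Cdh11 and Vim had no site of either factor. Over all protein-coding genes 7.03% had a Foxf1 summit within 1 kb, a distance chosen with these sites known.

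The lists come from chromatin immunoprecipitation followed by sequencing (ChIP-seq) with an anti-HA antibody in E14, a mouse embryonic stem cell line differentiated towards cardiac cells. The Hand1 cells carried Hand1-HA knocked into the gene and were taken at the stage labelled MES, after 48 h as embryoid bodies and 40 h of re-aggregation with VEGF (5 ng/mL), activin A (10 ng/mL) and BMP4 (0.3 ng/mL). The Foxf1 cells carried an inducible construct that overexpresses Foxf1-HA, and were taken at the stage labelled CP, after the same steps and 32 h more as a monolayer with VEGF (5 ng/mL), basic FGF (10 ng/mL) and FGF10 (25 ng/mL). Of the 5 samples, 1 was Hand1-HA at MES, 2 were Foxf1-HA at CP and 1 was an input library at each stage; the peak lists deposited with the Hand1 sample and with Foxf1 replicate 1 were analysed here. Whether the latter list also draws on the second Foxf1 library is not given in the sources used here. Factor, stage and expression of the tagged protein differ together between the lists, so they cannot be told apart, and a site shows where the tagged, in one case overexpressed, protein was recovered. Each factor had 1 list, so no value below has a replicate error and no difference was tested. The lists hold no expression values, and the cells were not checked against marker genes. The lists also have different limits, a lowest −log10 q-value of 5.01 for Hand1 and 10.0 for Foxf1, so their lengths and counts are not comparable.

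In epithelial-mesenchymal transition, cells lose the junctions that hold an epithelium together and gain the ability to migrate. Snail factors (Snai1, Snai2) and Zeb factors (Zeb1, Zeb2) are zinc-finger repressors that bind E-box sequences and repress Cdh1, which encodes E-cadherin. Mesoderm forms by such a transition at gastrulation, when E-cadherin gives way to N-cadherin (Cdh2), and mesenchymal cells express vimentin (Vim), fibronectin (Fn1) and the PDGF receptor alpha (Pdgfra). Foxf1 is a forkhead factor of lateral plate and splanchnic mesoderm. Hand1 is a basic helix-loop-helix factor of extraembryonic and cardiac mesoderm.

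Promoter sequences are shown for the genes on which the counts turn: Snai1, where a Foxf1 peak overlaps the promoter, Pdgfra, where Foxf1 peaks lie to either side of the listed start, and Zeb2, a regulator with no site. They are from RefSeq (GRCm38.p6, the assembly called mm10 in the submitters' processing notes) and span 250 bases before to 50 bases after a transcription start, 5′ to 3′ on the gene's strand. The table held such windows for 4 of the 10 genes. Capitals mark the bases inside a Foxf1 peak, and the windows lie at chr2:167537945-167538244 (plus strand), chr5:75152001-75152300 (plus strand) and chr2:45117393-45117692 (minus strand).
Snai1: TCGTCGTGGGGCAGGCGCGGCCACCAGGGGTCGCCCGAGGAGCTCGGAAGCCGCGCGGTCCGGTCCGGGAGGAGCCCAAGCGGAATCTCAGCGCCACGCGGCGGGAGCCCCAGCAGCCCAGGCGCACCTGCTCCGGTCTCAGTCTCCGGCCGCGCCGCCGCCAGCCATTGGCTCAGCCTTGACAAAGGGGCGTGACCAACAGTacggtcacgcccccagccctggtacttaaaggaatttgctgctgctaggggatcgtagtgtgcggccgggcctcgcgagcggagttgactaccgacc
Pdgfra: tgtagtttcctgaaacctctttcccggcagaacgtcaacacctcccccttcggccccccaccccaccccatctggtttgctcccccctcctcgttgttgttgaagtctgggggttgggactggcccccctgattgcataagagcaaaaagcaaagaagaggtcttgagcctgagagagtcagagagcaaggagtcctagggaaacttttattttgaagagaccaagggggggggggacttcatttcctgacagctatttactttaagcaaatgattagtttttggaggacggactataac
Zeb2: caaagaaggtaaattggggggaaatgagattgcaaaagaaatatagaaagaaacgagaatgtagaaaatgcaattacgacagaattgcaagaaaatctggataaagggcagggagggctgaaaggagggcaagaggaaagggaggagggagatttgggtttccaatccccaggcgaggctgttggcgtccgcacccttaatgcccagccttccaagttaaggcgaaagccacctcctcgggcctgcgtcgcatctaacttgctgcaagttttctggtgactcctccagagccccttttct

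The Foxf1 peak covered 203 of the 300 bases of the Snai1 window and none of the other windows. G and C made up 70.0% of the Snai1 window, 51.0% of the Pdgfra window and 49.3% of the printed Zeb2 window, where the median was 52.7% over all 32851 windows of the table and 64.7% over the 736 windows that held a Foxf1 summit. The table lists 4 windows for Zeb2, of which the outermost is printed; the other 3 had 52.7%, 52.7% and 60.7%. Words were searched on both strands. The E-box word CANNTG occurred once in the Snai1 window, as CACCTG, starting 126 bases before the transcription start and 104 bases from the Foxf1 summit, inside the peak. CACCTG is the E-box word known to be bound by Snail and Zeb factors. The Pdgfra window held CANNTG at 2 positions, and the first of these, 182 bases before the start, also matched the narrower word CATCTG. None of the 4 Zeb2 windows held it. CANNTG is common, present in 72.3% of all windows and in 62.2% of those with a Foxf1 summit. For CATCTG these shares were 17.2% and 13.6%. The forkhead words GTAAACA and ATAAACA, which share 6 letters, were in none of these 3 windows. Over all windows they occurred in 3.65% and 4.6%, and in 8.29% and 2.31% of windows with a Foxf1 summit. The GATA word AGATAA was in none of the 3 windows, in 11.2% of all and in 4.62% of those with a Foxf1 summit. These matches describe the windows only.

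At Snai1 (gene ID 20613, chromosome 2, 167538195 to 167542814), Foxf1 was found at the promoter. The peak (167537747 to 167538147) had its summit 230 bases before the transcription start, with a fold enrichment over background of 7.24 and a −log10 q-value of 22.4, both the authors' values. Solving the fold and p-value for fragment counts gave 45 fragments at the summit (95% exact Poisson interval 32.8 to 60.2, counting error only) over a control level of 5.36 fragments. By q-value this was the strongest site at the 10 genes, above 74.8% of the Foxf1 list. By fold enrichment it exceeded 39.5% of the list, and its control level was the highest of the 10 Foxf1 sites, against a list median of 2.92; the part of that level in the q-value was not tested. A further 2 Foxf1 sites in the window lay 75.1 kb away inside Slc9a8 (167462976 to 167463384, fold 6.25, −log10 q 10.1) and 62.5 kb away on the other side (167605156 to 167605590, fold 7.03, −log10 q 14.1), where the nearest gene end, at 2.28 kb, was that of Ube2v1. Both were nearer to those genes than to Snai1.

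Snai2 (gene ID 20583, chromosome 16, 14705852 to 14709395) had a single Foxf1 site, also just outside the gene. The peak (14705312 to 14705803) had its summit 0.323 kb beyond the end with the lower coordinate, a fold of 7.28 and a −log10 q-value of 12.8. It held 24 fragments (interval 15.4 to 35.7) over a control level of 2.43. The 2 Snail genes had summits at similar distances from a gene end and with nearly equal fold. The Snai1 summit held more fragments over a higher control level. The counting intervals of the 2 summits overlapped, but overlap does not measure the difference in fragments, which was not tested.

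The Zeb genes had no Foxf1 or Hand1 site, inside the gene or within 100 kb. Zeb1 (gene ID 21417, chromosome 18, 5591327 to 5775468) and Zeb2 (gene ID 24136, chromosome 2, 44983512 to 45117442) are long genes of 184 kb and 134 kb, so their windows of 384 kb and 334 kb were wider than those of Snai1 (205 kb) and Snai2 (204 kb). The nearest Foxf1 summit lay 280 kb from Zeb1, inside Arhgap12, and 1.31 Mb from Zeb2, inside Kynu. Of protein-coding genes, 8.17% lay farther from a Foxf1 summit than Zeb2 did.

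Among the cadherins, only Cdh1 (gene ID 12550, chromosome 8, 106603350 to 106670247) had Foxf1 sites in its window, and none of its 3 sites lay in or next to the gene. The nearest, 29.5 kb from the gene, lay inside Tango6 (106699537 to 106699877, fold 6.35, −log10 q 12.3). The other 2 lay at the placental cadherin gene Cdh3: 1 inside it, 68.7 kb from Cdh1 (106534526 to 106534829, fold 6.81, −log10 q 14.1), and 1 outside it, 2.97 kb from its end and 95.5 kb from Cdh1 (106507624 to 106508216, fold 7.09, −log10 q 16.0). All 3 were nearer to an end of Cdh3 or Tango6 than to Cdh1. They held 27 to 32 fragments over control levels of 3.41 to 3.65. Chromosome 8 had a median control level of 4.14 in the Foxf1 list and 0.479 Foxf1 regions per protein-coding gene, against 2.68 and 0.246 on chromosome 2; the part of this in the Cdh1 count was not tested.

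Cdh2 (gene ID 12558, chromosome 18, 16588877 to 16809246), which encodes N-cadherin, and Cdh11 (gene ID 12552, chromosome 8, 102632095 to 102785493), which encodes the mesenchymal OB-cadherin, had no site of either factor. The nearest Foxf1 summits lay 1.45 Mb and 1.24 Mb away, and the nearest Hand1 summits 5.71 Mb and 7.25 Mb away. Both genes stood alone, with no other protein-coding gene in windows of 420 kb and 353 kb.

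At Pdgfra (gene ID 18595, chromosome 5, 75151322 to 75198206) Foxf1 was found at the gene's start and inside it. The first peak (75150848 to 75151498) had its summit 1 bp outside the annotated gene and 930 bases before the transcription start of the printed window, with a fold of 6.77 and a −log10 q-value of 10.7. Of the 10 Foxf1 sites it held the fewest fragments, 21 (interval 13 to 32.1), and it was weak for its list. Its −log10 q-value exceeded 8.14% of Foxf1 lines and its fold exceeded 27.7%. The second peak (75155604 to 75157371) lay inside the gene and took 2 lines, 1 per summit. Its stronger summit, 5.05 kb from the gene's lower end, had a fold of 8.17 and a −log10 q-value of 19.8 on 35 fragments, and its weaker summit, 4.52 kb from that end, had a fold of 6.86 and a −log10 q-value of 12.9 on 26 fragments. The stronger summit had the highest fold of the 10 sites, and Pdgfra was the only one of the 10 genes with a site inside it.

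Fn1 (gene ID 14268, chromosome 1, 71585473 to 71653280) had the only Hand1 site. The peak (71681100 to 71681650) lay 28.2 kb outside the gene, between genes, and Fn1 was its nearest protein-coding gene. It was weak for its list: the fold of 5.83 exceeded 18.9% of Hand1 lines and the −log10 q-value of 6.03 exceeded 12.7%, with 15 fragments at the summit (interval 8.40 to 24.7). The nearest Foxf1 summit lay 461 kb from it. Vim (gene ID 22352, chromosome 2, 13574311 to 13582826) had no site; its nearest Foxf1 summit lay 1.27 Mb and its nearest Hand1 summit 1.39 Mb away.

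**Figure D1:**
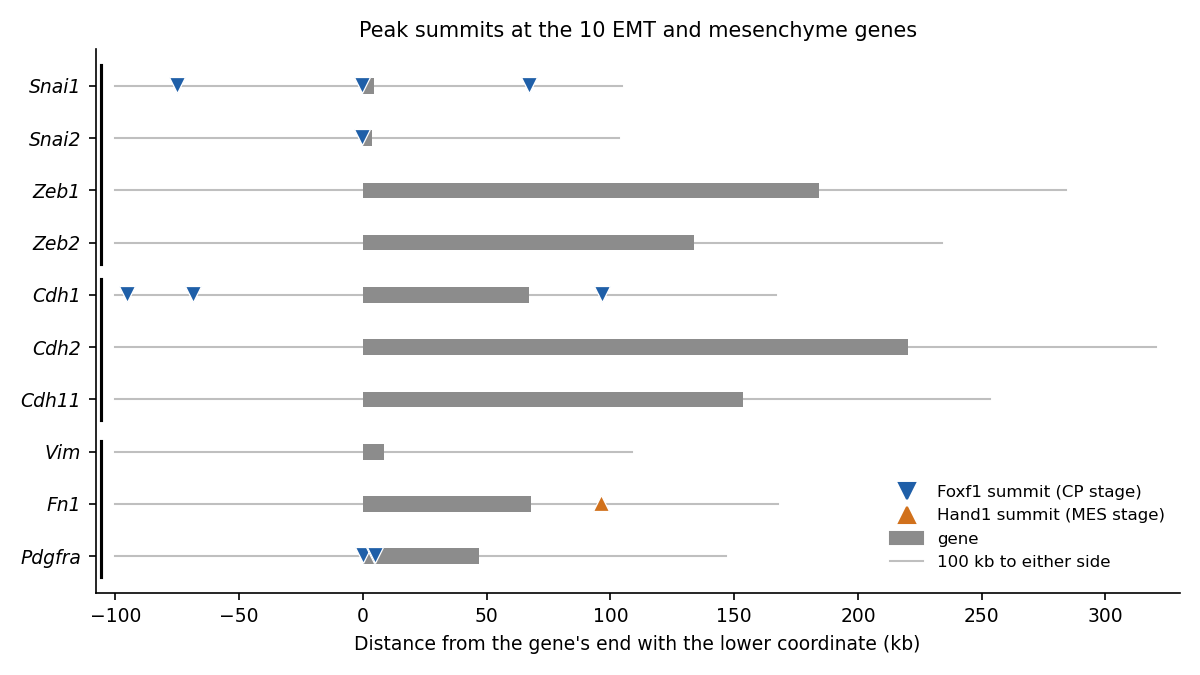
Summits of Foxf1 (blue) and Hand1 (orange) peaks at the 10 genes, by distance in kb from the gene end with the lower coordinate; grey boxes are genes, thin lines the 100 kb to either side, and black bars at the left group regulators, cadherins, and structural or receptor genes. A Foxf1 summit sits at an end of Snai1, of Snai2 and of Pdgfra. At Pdgfra its mark overlaps those of the 2 summits inside the gene. The other Snai1 summits lie 62.5 and 75.1 kb away, and the Cdh1 summits 29.5 to 95.5 kb away. The single Hand1 summit lies 28.2 kb beyond Fn1.

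Counted by role, the number of Foxf1 sites per gene within 100 kb was equal for the regulators and the other genes. The 4 regulators had 4 sites at 2 genes and the 6 cadherin, structural and receptor genes had 6 sites at 2 genes, a mean of 1.00 site per gene in both. Per Mb of window the values were 3.55 and 3.4, and over all protein-coding genes 5.02. Closer measures did not all go the same way. A summit lay within 1 kb of an end at 2 of the 4 regulators and 1 of the 6 others. Over all protein-coding genes that share was 7.03%. The median distance to the nearest Foxf1 summit was 140 kb for the regulators (range 0.23 to 1310 kb) and 864 kb for the others. Sites per gene, regulators minus the others, differed by 0 within 10 kb, -0.17 within 50 kb and -0.33 inside genes. None of these differences was tested. In each role, some genes had 3 Foxf1 sites and others had none. The Hand1 list had 0 sites at the regulators and 1 at the other genes.

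These counts were set beside the same count over 21887 protein-coding genes. A Foxf1 summit lay in the gene or within 100 kb for 53.3% of them, above the 4 of 10 here. A Hand1 summit did so for 9.90% of them, near the 1 of 10 here. At least 3 Foxf1 summits were found at 17.6% of protein-coding genes and at 3 of the 10. By the presence of at least 1 site within 100 kb the 10 genes were thus not above the background. Genes with at least 3 Foxf1 summits were a larger share here, but Pdgfra reached 3 through 2 summits of 1 peak. With each region counted once Pdgfra had 2 sites, and the share over all genes was not recounted that way. All 3 Cdh1 sites were nearer to other genes, and by nearest gene Snai1 kept 1. The median number of Foxf1 sites was 0 over the 10 genes and 1 over all.

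Next to the genes the share was higher here than over all genes. A Foxf1 summit lay within 1 kb of a gene end for 7.03% of protein-coding genes and for 3 of the 10, Snai1, Snai2 and Pdgfra. Within 10 kb the share was 22.7% against the same 3 of 10, and inside the gene 11.0% against 1 of 10. The 1 kb distance and the count of 3 sites were chosen with the positions of these sites known, and the excess at 1 kb was not tested. Distances to the nearest summit spread widely: 5 of the 10 Foxf1 lines lay beyond 10 kb from the gene, while the median distance from gene to nearest Foxf1 summit was 384 kb over the 10 genes and 82.7 kb over all protein-coding genes. For Hand1 these medians were 1.92 Mb and 1.04 Mb.

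**Figure D2:**
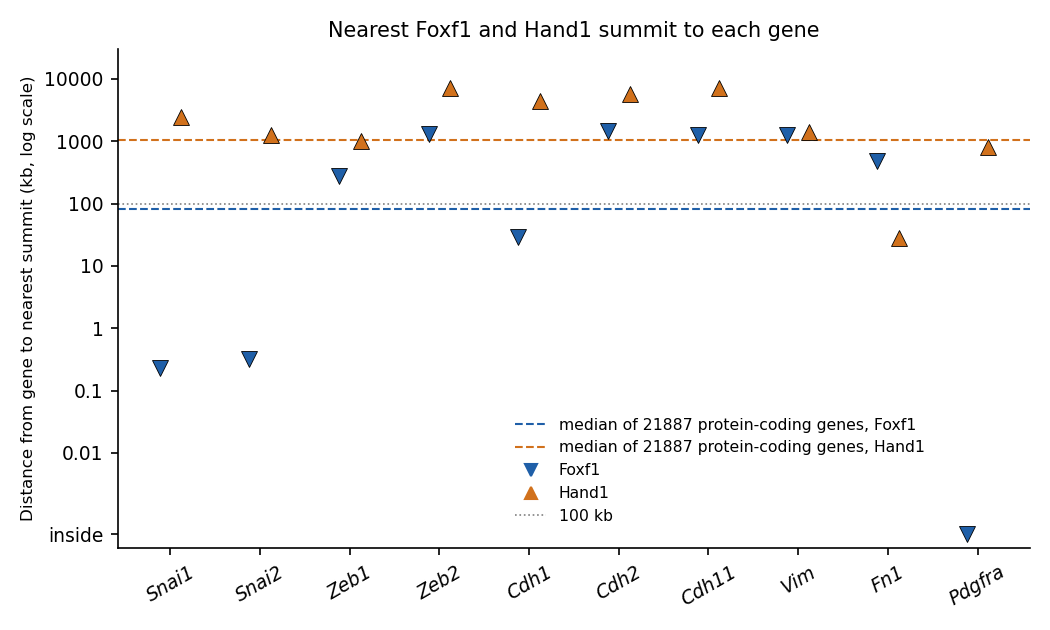
Distance in kb (log scale) from each of the 10 genes to the nearest Foxf1 (blue, pointing down) and Hand1 (orange, pointing up) summit, with dashed lines at the medians of 21887 protein-coding genes and a dotted line at 100 kb; "inside" marks a summit in the gene. For Foxf1, Snai1, Snai2, Cdh1 and Pdgfra lie under the median of 82.7 kb and the other 6 genes above 100 kb; for Hand1, Fn1 alone lies under 100 kb.

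Of the 6 genes without a Foxf1 site, 3 stood in gene-poor windows. Zeb1, Cdh2 and Cdh11 had no other protein-coding gene in the window, and of the 1181 protein-coding genes with such windows 20.7% had a Foxf1 site. The share rose with gene density, to 31.6% with 1 other gene (Snai2, Zeb2, Fn1 and Pdgfra), 41.0% with 2 (Cdh1), 48.7% with 3 (Vim), 53.0% with 4 (Snai1) and 65.8% with 5 or more. The median number of other genes was 1 for the 10 genes and 4 for all. Vim, in a window with 3 other genes, had no site, and Snai2 and Pdgfra, with 1 other gene each, had their sites at an end or, for 2 of the 3 Pdgfra summits, inside the gene. The share of genes with a Foxf1 summit within 1 kb of an end varied less, from 5.12% to 8.02% over these classes. The part of gene density in the members' counts was not tested.

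**Figure D3:**
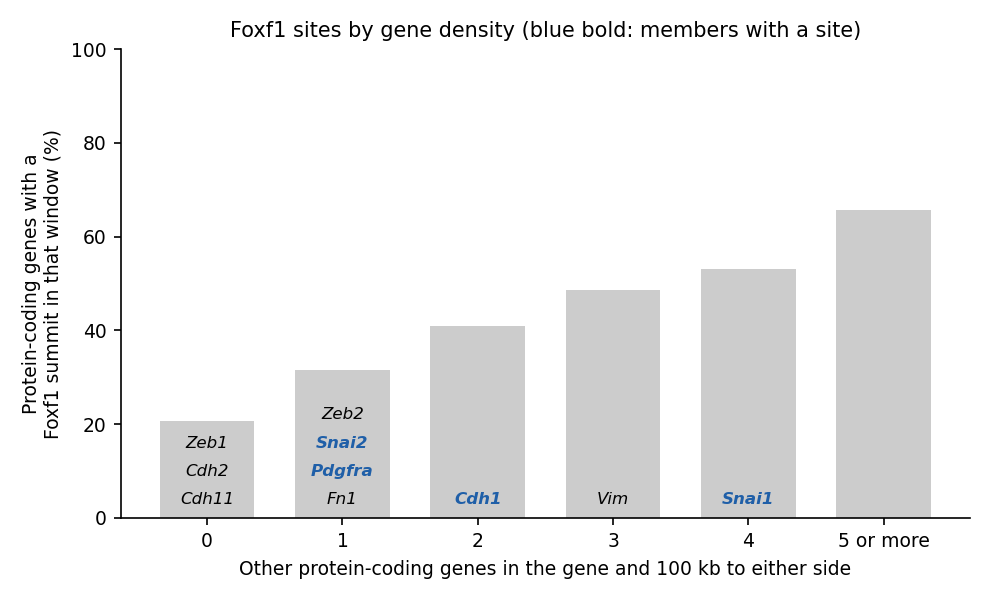
Percentage of protein-coding genes with a Foxf1 summit in the gene or within 100 kb, by the number of other protein-coding genes in that window; names place the 10 genes, in bold blue where they had a Foxf1 site. The bars rise from 20.7% to 65.8%, and the 3 genes in the lowest class, Zeb1, Cdh2 and Cdh11, had no site.

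By fold enrichment, most Foxf1 sites at these genes lay in the lower part of their list. Fold enrichment ran from 6.25 to 8.17, with a median of 6.95 against 7.62 over the list, and 9 of the 10 lines lay below that list median. The −log10 q-value ran from 10.1 to 22.4, with a median of 13.5 against 15.4, and 3 of the 10 lines lay above that list median: the Snai1 promoter summit, the stronger Pdgfra summit and the Cdh1 site 2.97 kb outside Cdh3. None of the 10 had a high control level (at least 5 times the lowest, 7.83), which was rare in the list (201 of 5703 Foxf1 lines). None overlapped a Hand1 peak, the nearest Hand1 summit being 0.857 Mb or more away. The share of all Foxf1 lines that overlap a Hand1 peak is not given here.

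**Figure D4:**
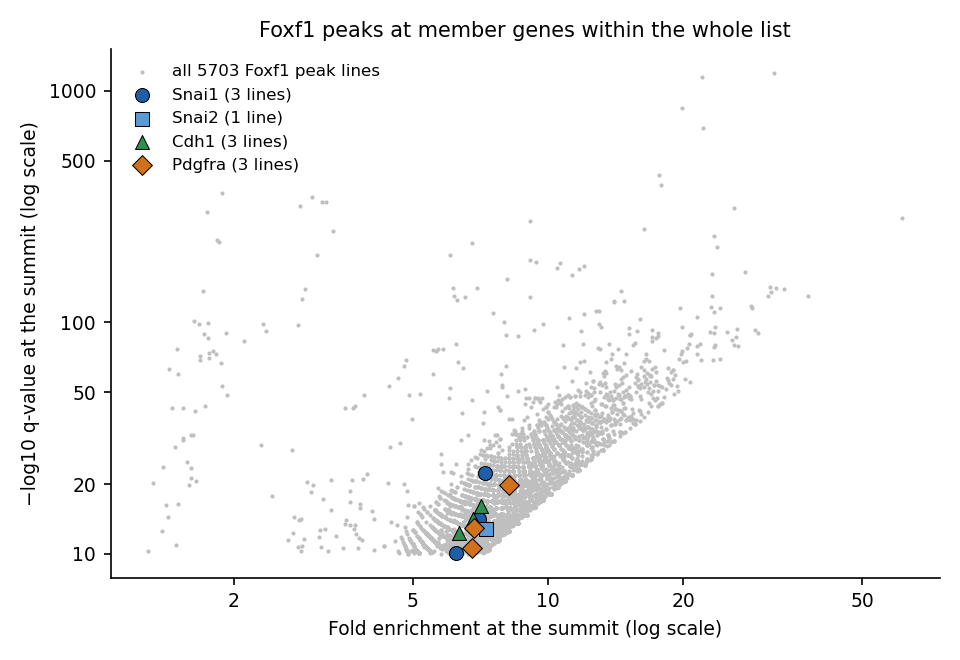
Fold enrichment against −log10 q-value at the summit (both log scales) for all 5703 Foxf1 lines (grey) and the 10 lines at Snai1, Snai2, Cdh1 and Pdgfra (coloured). All 10 lie between a fold of 6.25 and 8.17; the Snai1 promoter summit has the highest q-value, 22.4, and a Pdgfra summit the highest fold.

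Wider lists of the same biology were counted in the same way. Of 10 other EMT transcription factors, 7 had a Foxf1 site within 100 kb (70.0%, background 53.3%). The most were at Tcf3 (5), which encodes an E-protein, Snai3 (4), the third Snail gene, and Foxc2 (3). The nearest summits lay 12.4 kb from Tcf3, 65.9 kb from Snai3 and 2.71 kb from Foxc2. At Tcf4, another E-protein gene, the single summit lay inside the gene and within 1 kb of an end. Of 16 epithelial genes, 13 had one (81.2%), with the most at the neighbouring keratin genes Krt18 (8) and Krt8 (7), at Ovol1 (5), a repressor of Zeb1 in epithelia, and at Cdh3 (4). The 39 sites of the epithelial list were 31 distinct lines, because neighbouring genes share sites, and its genes had a median of 6 other genes in the window. The Cdh3 sites include the lines at Cdh3 described above, which were also counted for Cdh1.

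Of 16 other mesenchymal matrix, cytoskeleton and adhesion genes, 9 had a Foxf1 site (56.2%). The most were at Col1a1 (6), which encodes a collagen I chain, at the fibronectin receptor gene Itga5 (5) and at the matrix protease gene Mmp14 (3). Col1a1 had a summit inside the gene. It also had a summit within 1 kb of an end, which may be the same or another one. Of 13 genes of TGF-beta and PDGF signalling, 7 did (53.8%), led by Smad2 (5), whose nearest summit was 63.1 kb away, and Tgfb1 (3). Tgfb3 had a summit 0.518 kb from the gene. In each of these 4 lists 1 gene had a Foxf1 summit within 1 kb of an end: Tcf4, Krt8 (0.073 kb from the gene), Col1a1 and Tgfb3. Together these were 4 of 55 genes, 7.27%, near the 7.03% of all protein-coding genes. Hand1 sites were found at 0 of 10, 0 of 16, 1 of 16 and 0 of 13 genes of these lists; the exception was Mmp14, with a Hand1 summit 75.3 kb away. That is 1.82% of the 55 genes, against 9.90% of all protein-coding genes. The median number of other genes per window was 2 for the EMT factors, 2.5 for the matrix list and 2 for the signalling list. Of protein-coding genes with 2 other genes in the window 41.0% had a Foxf1 site, with 3 48.7%, and with 5 or more 65.8%. None of these shares was tested, nor was the part of gene density in them.

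At the edge of the 100 kb rule, the farthest site counted was the Foxf1 summit 95.5 kb from Cdh1, with a fold of 7.09, and the nearest site left out was a Foxf1 summit 119 kb from Snai1, with a fold of 6.33.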

How the data were processed

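Submitters' processing notes name Trim Galore 0.6.6, Bowtie2 2.3.4.3, SAMtools 1.9, deepTools 3.5.0, MACS2 2.2.7.1 and build mm10; roles, control and pooling are not given in the sources used here. The lists have no header. As deposited by the authors, each line gives a score (10 times the −log10 p-value), a fold enrichment ratio, a −log10 p-value and a −log10 q-value of the summit. Coordinates are 1-based. Each line was 1 site. Genes were those of the RefSeq table of GRCm38.p6, protein-coding, on the named chromosomes.

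Depth is not given. Fragments k and control level λ at a summit were solved from fold = (k + 1)/(λ + 1) and the Poisson probability of more than k at mean λ, taking the higher λ; whole k were found for 100% of Hand1 and 99.9% of Foxf1 lines. Counting and solving were tested on simulated data. Python 3.11.15, pandas 2.3.3 and scipy 1.17.1 were used. The genes and lists were chosen with earlier results of these data known. All 10 genes, each site's nearest gene and up to 4 genes per other list with the most sites are named; genes named for a summit within 1 kb (Tcf4, Krt8, Col1a1, Tgfb3) include some chosen after their values were seen. With 1 list per factor no test was run.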

Additional observations from a re-analysis of the deposited data

How the results depend on the processing

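Of 48 alternatives over 6 results, 29 left the value the same (counts within 1.5 times) and 19 moved it. No reversal was possible, since counts have no sign and the Foxf1 difference was 0. For the Hand1 difference, the Hand1 summit nearest to a regulator lay 999 kb away, outside every window tried. The equal-length setting kept all 1134 Hand1 lines, so it could not change the Hand1 values. Foxf1 sites, 10 as reported, numbered 6 within 50 kb, 5 within 10 kb, 2 inside genes, 5 when a site counted only for its nearest protein-coding gene, and 0 when the Foxf1 list was shortened to its 1134 lines of highest fold, which all had a fold of at least 9.73. Genes with a Foxf1 site, 4 as reported, numbered 1 inside genes and 0 in lists of equal length; they were 3 within 10 kb or by nearest gene, where Cdh1 dropped out. The Foxf1 difference per gene, regulators minus the others, was 0 as reported, -0.17 within 50 kb, -0.33 inside genes and 0.17 with each region counted once. The Hand1 site, its gene and the difference of -0.17 all became 0 within 10 kb, inside genes and at a −log10 q-value of at least 10, as the Fn1 site lies 28.2 kb away with a value of 6.03. That q-value limit removed no Foxf1 line and says nothing of Foxf1. No paired analysis was possible because a single list represents each factor, and no replicate could be left out. Depth limits the weakest sites, which rest on 15 (Hand1) and 21 (Foxf1) fragments; a gene without a listed peak may hold weaker enrichment.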

Other observations

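The nearest sites outside the 100 kb windows were also listed. Those named below were picked for their neighbouring genes, so no pattern can be read from them. Others were nearest to genes such as Slc9a8, Mrtfb, Rab18, Zfp90 and Mreg. For Vim both lists had their nearest summit inside Itga8, an integrin gene, at 1.27 Mb (Foxf1, fold 9.79) and 1.39 Mb (Hand1, fold 5.47). For Cdh11 the nearest Foxf1 summit, 1.24 Mb away with a fold of 5.83, had the endothelial cadherin gene Cdh5 as its nearest protein-coding gene. For Snai1 the nearest Hand1 summit, 2.44 Mb away with a fold of 5.77, was nearest to another cadherin gene, Cdh22. For Pdgfra the nearest Hand1 summit, 0.815 Mb away with a fold of 7.04, was nearest to Kdr, which encodes a VEGF receptor. For Snai2 the nearest Foxf1 summit outside its window lay 468 kb away, inside the smooth muscle myosin gene Myh11, with a fold of 5.80.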
